A study of Homo sapiens with 9 samples.

Results

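Of the 512 ZNF genes in a deposited table of 62666 genes, 33 were off in a line of the MCF10A breast progression series while another line expressed them. The rule took every gene whose name is ZNF, a number and at most 1 letter, with estimated counts that sum to 30 or less over the 3 libraries of a line ("off" below) and a mean of 100 or more counts in another line. Of the ZNF genes, 391 reached that mean in a line. All 33 genes were off in MCF10Ca1a: 19 there alone, 12 also in MCF10AT1 and 2 also in MCF10A. The genes were chosen by these measured counts, so their fall in the off line is described below without a test.

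RNA with poly-A tails was sequenced in 3 libraries for each of 3 human mammary epithelial lines. MCF10A is a non-tumorigenic line, MCF10AT1 is MCF10A carrying an activated HRAS gene, and MCF10Ca1a, from the same lineage, forms tumours in mice, so each stage is a single established line. The study compared them to follow expression along breast cancer progression. All were grown in DMEM/F12 with insulin, epidermal growth factor, hydrocortisone and cholera toxin, with 5% horse serum for MCF10A and MCF10Ca1a and 2.5% for MCF10AT1, so that in any comparison with MCF10AT1 the serum and the line cannot be told apart. The labels do not say that the replicates were separate cultures, so p-values measure the spread between these libraries, which may be technical.

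MCF10A and MCF10AT1 libraries held 62.9 to 69.5 M counts, and those of MCF10Ca1a held 32.9 to 35.2 M. The rule does not scale for depth. With a sum limit of 15 in place of 30, 29 of the 33 genes still met it. With counts scaled to the smallest library 21 genes met it, 19 of them among the 33. Of these 21, 19 were off in MCF10Ca1a, 7 in MCF10AT1 and 1 in MCF10A, so not all were off in MCF10Ca1a. The 14 lost were those lost with a mean of 200 in place of 100, since scaling lowers counts in MCF10A and MCF10AT1. Mammary epithelial markers were expressed in each line (7, 7 and 8 of 8 at a mean of 1 TPM or more in MCF10A, MCF10AT1 and MCF10Ca1a; summed TPM from 1800 to 3050 over all libraries), but not evenly. The basal keratin genes were lower in MCF10Ca1a, with KRT14 at 176 to 241 TPM in MCF10A, 36.9 to 39.7 in MCF10AT1 and 4.7 to 4.94 in MCF10Ca1a, and KRT5 at 1210 to 1700, 1510 to 1740 and 411 to 426. The basal marker TP63 was not lower in MCF10Ca1a, with 22.7 to 29.8, 15.3 to 16.9 and 30.6 to 31.9 TPM in the same order. CDH1, which encodes E-cadherin, had 33.4 to 52.8, 36.1 to 38.4 and 227 to 238 TPM. EPCAM had 36.8 to 42.4, 155 to 181 and 383 to 395, and KRT8 had 96.5 to 130, 410 to 470 and 432 to 452. KRT18 had 221 to 303, 524 to 574 and 678 to 718. KRT19 had 0.0294 to 0.0802, 0.189 to 0.341 and 6.78 to 7.74. The fibroblast markers COL1A2, COL3A1, LUM, PDGFRA and PDGFRB, the leukocyte markers PTPRC, CD3E and LYZ, and the endothelial markers CDH5 and VWF were under 0.1 TPM in every line. Other markers of these cell types were detected. DCN, a fibroblast proteoglycan, had 26.6 to 30.4 TPM in MCF10AT1, 3.55 to 3.65 in MCF10A and 0.0595 to 0.48 in MCF10Ca1a, and the collagen gene COL1A1 had 0.867 to 3.59 over all libraries. CD14, a monocyte receptor, had 7.58 to 9.41 TPM in MCF10A, 3.38 to 3.93 in MCF10AT1 and 0.14 to 0.281 in MCF10Ca1a. Their part in the results was not tested. In MCF10Ca1a the summed endothelial list reached 15.6 to 20.8 TPM, which was PECAM1.

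ZNF genes encode proteins with tandem C2H2 zinc fingers, each finger holding a zinc ion and reading a short stretch of DNA. Many carry a KRAB domain, which recruits the co-repressor TRIM28 and, through it, the histone methyltransferase SETDB1, heterochromatin proteins and histone deacetylases. In humans KRAB genes lie in dense clusters on chromosome 19 that arose by repeated duplication, and many of their proteins bind transposable elements. A KRAB domain, found as a sequence pattern in translated GENCODE 29 coding transcripts, was present in 29 of the 33 genes (87.9%) and in 182 of 357 other ZNF genes with a mean of 100 or more counts (51%). On chromosome 19, all 25 of these genes had it against 103 of 149 other ZNF genes (69.1%), and on the other chromosomes 4 of 8 against 79 of 208 (38%). ZNF22, ZNF385B, ZNF501 and ZNF711 lacked it. The genes coded for a median of 13 fingers against 10 in the other ZNF genes. The range ran from 0 to 21, with none in the coding transcript of ZNF738 and 21 in both ZNF585A and ZNF585B.

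Promoter sequence is shown for 6 genes, because a gene and its neighbour on the opposite strand can start from the same short stretch. Sequences are from RefSeq on GRCh38.p14, run from 250 bases before the start to 50 after it, read 5′ to 3′ on the strand of the gene, and have every CpG in capitals, the dinucleotide at which human DNA is methylated. Methylation was not measured in the data used here. ZNF22 (chr10:45000673-45000972, plus strand) had the highest level of the 33 genes. ZNF136 (chr19:12162846-12163145, plus strand) lies in a stretch of 10 tested genes that were all silent. ZNF829 (chr19:36916242-36916541, minus strand) and its neighbour ZNF568 (chr19:36916082-36916381, plus strand) share 140 bases and were lost together. ZNF214 (chr11:7020297-7020596, minus strand) and NLRP14 (chr11:7020229-7020528, plus strand) share 232 bases and moved in opposite directions.
ZNF22: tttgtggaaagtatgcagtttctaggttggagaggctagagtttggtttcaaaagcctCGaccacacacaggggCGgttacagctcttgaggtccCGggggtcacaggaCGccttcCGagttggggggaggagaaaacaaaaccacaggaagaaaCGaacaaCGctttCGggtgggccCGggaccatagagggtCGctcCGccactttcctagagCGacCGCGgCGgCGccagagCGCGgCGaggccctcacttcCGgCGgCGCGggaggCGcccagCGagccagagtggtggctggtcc
ZNF136: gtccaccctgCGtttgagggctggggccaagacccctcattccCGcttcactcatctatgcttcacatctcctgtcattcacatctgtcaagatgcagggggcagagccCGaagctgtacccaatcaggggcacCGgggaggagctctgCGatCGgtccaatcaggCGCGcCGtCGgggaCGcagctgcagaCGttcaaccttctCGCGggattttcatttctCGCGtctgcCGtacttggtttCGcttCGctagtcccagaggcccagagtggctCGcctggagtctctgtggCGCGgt
ZNF829: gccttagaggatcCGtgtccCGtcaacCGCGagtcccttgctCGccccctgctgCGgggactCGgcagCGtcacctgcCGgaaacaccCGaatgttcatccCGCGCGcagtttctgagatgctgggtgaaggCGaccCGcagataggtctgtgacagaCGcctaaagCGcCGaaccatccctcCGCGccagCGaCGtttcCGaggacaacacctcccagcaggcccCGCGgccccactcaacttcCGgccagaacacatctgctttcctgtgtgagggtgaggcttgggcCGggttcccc
ZNF568: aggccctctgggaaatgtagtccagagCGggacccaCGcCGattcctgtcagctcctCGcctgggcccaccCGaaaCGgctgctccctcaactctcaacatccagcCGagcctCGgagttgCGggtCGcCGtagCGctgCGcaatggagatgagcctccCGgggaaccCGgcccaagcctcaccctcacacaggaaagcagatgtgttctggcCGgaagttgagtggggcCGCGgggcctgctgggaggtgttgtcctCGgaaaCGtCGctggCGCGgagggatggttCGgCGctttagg
ZNF214: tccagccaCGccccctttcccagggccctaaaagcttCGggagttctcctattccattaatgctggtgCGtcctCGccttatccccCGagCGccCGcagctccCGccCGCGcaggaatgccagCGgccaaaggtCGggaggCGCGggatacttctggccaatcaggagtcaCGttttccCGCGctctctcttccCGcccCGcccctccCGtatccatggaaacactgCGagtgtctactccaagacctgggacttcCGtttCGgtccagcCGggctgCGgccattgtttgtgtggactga
NLRP14: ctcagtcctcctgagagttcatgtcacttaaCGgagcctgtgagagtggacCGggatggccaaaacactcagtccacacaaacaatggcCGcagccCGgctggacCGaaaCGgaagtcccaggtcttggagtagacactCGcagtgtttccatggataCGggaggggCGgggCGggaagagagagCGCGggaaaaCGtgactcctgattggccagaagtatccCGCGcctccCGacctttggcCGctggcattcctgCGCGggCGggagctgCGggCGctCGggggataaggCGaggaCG

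These windows hold 25, 22, 27, 25, 25 and 25 CpGs in the order printed. RefSeq promoters matched 31 of the 33 genes, all but ZNF253 and ZNF738. The median was 19 CpGs (range 9 to 34), against 22 in 308 other ZNF genes and 27 in 9706 expressed genes that are no ZNF genes. The ratio of observed to expected CpGs reached 0.6 in 23 of 31 (74.2%), in 85.1% of the other ZNF promoters and in 84% of the promoters of expressed genes that are no ZNF genes. CpG-rich starts were thus common in all 3 sets.

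Motifs were searched on both strands as exact letters, each by itself. The SP1 box GGGCGG was in 67.7% of the 31 promoters, in 63.6% of the other ZNF promoters, in 71% of those of expressed genes that are no ZNF genes and in 44.6% of all 27305 promoters of that length. In the same order, CCAAT was in 61.3%, 45.8%, 37% and 35.7%, and the ETS core CCGGAAG in 51.6%, 40.3%, 19.5% and 10.7%. The cAMP response element TGACGTCA was in 3.23%, 4.87%, 3.26% and 1.98%, and TATAAA in 3.23%, 3.25%, 5.59% and 12%. The CCAAT and ETS letters had higher shares in both ZNF sets than in the other expressed genes or all promoters, and the SP1 letters were no more frequent than in the other expressed genes. A match describes the letters only.

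The share of genes off was uneven between lines. Among ZNF genes with a mean of 100 or more counts in a line, 8.44% were off in MCF10Ca1a, 3.07% in MCF10AT1 and 0.512% in MCF10A. The same rule over all 13095 genes that reached the mean gave 2.93%, 0.909% and 0.939%. In any line it was met by 8.44% of ZNF genes, 3.93% of all genes, and 3.61% of the 12230 genes with a symbol that are no ZNF genes. Among 69 zinc finger genes of other names (ZFP, ZSCAN, ZKSCAN, ZBTB, ZIK and ZIM) it was met by 1, or 1.45%. Of the 514 genes of any kind that met it, 86 (16.7%) were off in MCF10A alone and 20 (3.89%) in MCF10AT1 alone, and none of those was a ZNF gene. Genes off in both MCF10AT1 and MCF10Ca1a made up 36.4% of the ZNF genes that met the rule and 14.6% of all genes that did. These shares describe the rule's own counts, and no test was made of them.

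**Figure D1:**
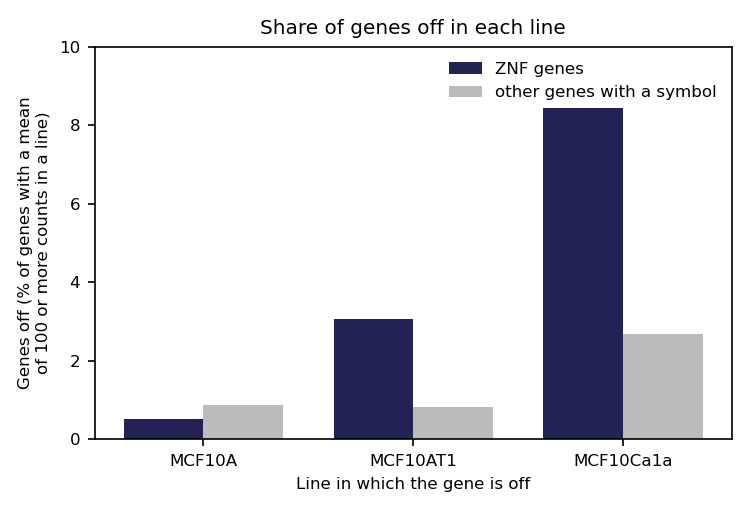
Percentage of genes off in each line, over genes with a mean of 100 or more counts in a line, for ZNF genes (dark bars, 391 genes) and other genes with a symbol (grey bars, 12230 genes). The ZNF bars read 0.512, 3.07 and 8.44, and the grey bars 0.867, 0.809 and 2.67.

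For most of the genes the off state was close to an absence of reads. In MCF10Ca1a, 20 of the 33 genes had 0 counts in all 3 libraries and 25 had at most 3 counts in any library. There, 8 had counts above 0 in all 3 libraries, and the highest single count was 12. In MCF10AT1, 7 of the 12 off genes had 0 counts in all 3 libraries, and the highest count was 13. Both genes off in MCF10A kept some counts, the highest being 8. In the highest line the median was 1.9 TPM (a level scaled by transcript length and depth), from 0.521 to 19.8, beside 5.34 in the 358 other ZNF genes with a mean of 100 or more counts. Counts are what the rule selects on, and a low sum is easier to meet for a gene of low level, so nothing is read from that difference. The mean count was highest in MCF10A for 27 genes and in MCF10AT1 for 6, and by mean TPM for 28 and 5. The rule fixes part of this split: no gene off in MCF10Ca1a can be highest there, and it leaves 1 line for the 12 genes also off in MCF10AT1 and for the 2 also off in MCF10A. In the heatmap of counts, MCF10Ca1a is dark for every gene, and MCF10AT1 for the 12 it shares.

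**Figure D2:**
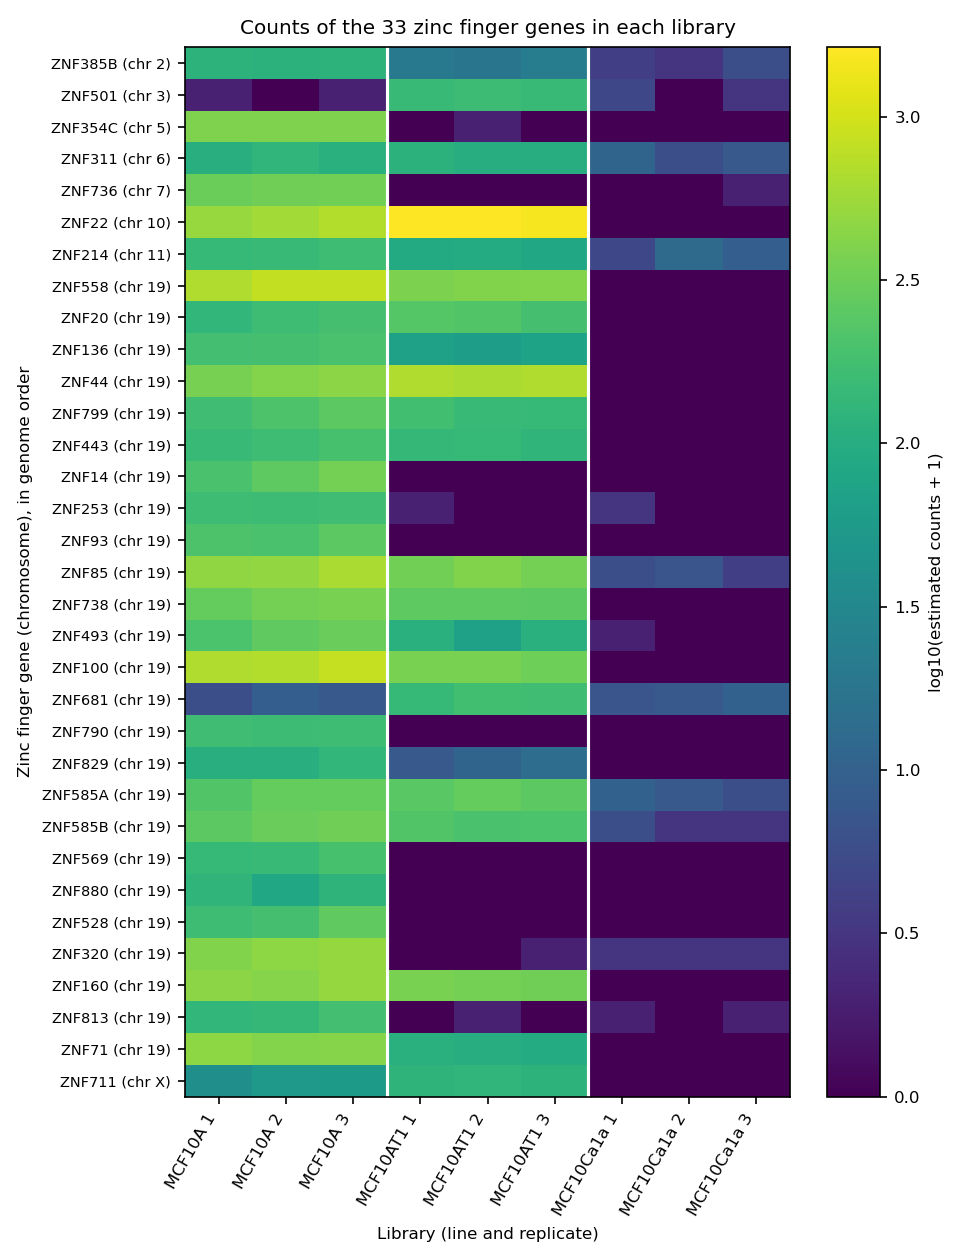
log10(estimated counts + 1) of the 33 genes (rows, in genome order, with the chromosome) in the 9 libraries (columns, 3 per line). Yellow is high and dark purple is 0, as for ZNF22, with up to 1635 counts in MCF10AT1 and 0 in MCF10Ca1a.

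Among the 19 genes off in MCF10Ca1a alone, ZNF22 on chromosome 10, a zinc finger factor described in tooth development, had the highest level. It had 528, 590 and 689 counts in MCF10A, 1635, 1609 and 1461 in MCF10AT1 and 0 in each MCF10Ca1a library. Its level was 8.21 ± 0.305 TPM in MCF10A and 19.8 ± 0.817 in MCF10AT1 (SD, n = 3). With a floor of 3 counts per library, its CPM was at least 281-fold lower in MCF10Ca1a than in MCF10AT1.

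ZNF558 (19:8806170-8832328), a KRAB gene known from work on human neural progenitors, had 684, 835 and 832 counts in MCF10A, 384, 406 and 410 in MCF10AT1 and 0 in each MCF10Ca1a library. The fall from MCF10A to MCF10Ca1a was at least 138-fold. ZNF71 (19:56595264-56626481), a KRAB gene near the end of the long arm, had 459, 413 and 422 counts in MCF10A, 109, 99 and 94 in MCF10AT1 and 0 in MCF10Ca1a. Neither has another of the 33 genes within 1 Mb.

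Of the genes on other chromosomes, ZNF385B, ZNF214 and ZNF311 kept a few reads in MCF10Ca1a. ZNF385B (chromosome 2) had 118, 116 and 118 counts in MCF10A, then 19, 17 and 22 in MCF10AT1 and 3, 2 and 5 in MCF10Ca1a. ZNF214 (chromosome 11) had 143, 151 and 162, then 90, 95 and 81, then 4, 12 and 8. ZNF311 (chromosome 6, near the major histocompatibility complex) had 104, 130 and 108, then 114, 99 and 99, then 10, 5 and 7. All 3 kept a few counts in every MCF10Ca1a library. Their mean CPM there was lower than in MCF10A by 18.7-fold for ZNF385B, 9.92-fold for ZNF214 and 8.28-fold for ZNF311, the last being the smallest fall of the set. ZNF711, an X-linked gene in which loss of function causes intellectual disability, had 39, 54 and 55 counts in MCF10A, 123, 129 and 117 in MCF10AT1 and 0 in MCF10Ca1a.

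The 12 genes off in both MCF10AT1 and MCF10Ca1a were ZNF354C (chromosome 5), ZNF736 (chromosome 7) and, on chromosome 19, ZNF14, ZNF253, ZNF93, ZNF790, ZNF829, ZNF569, ZNF880, ZNF528, ZNF320 and ZNF813. Their highest level, always in MCF10A, ran from 0.521 to 3.1 TPM. ZNF354C had 390, 394 and 390 counts in MCF10A, 0, 1 and 0 in MCF10AT1 and 0 in MCF10Ca1a. ZNF736 had 313, 327 and 342 in MCF10A, 0 in MCF10AT1 and 0, 0 and 1 in MCF10Ca1a. Of the 12, ZNF829 alone kept more than 1 count in any MCF10AT1 library, with 7, 10 and 13. All 30 of these lay on the transcript ENST00000520965.5, and its main transcript in MCF10A, ENST00000391711.8, had 0.

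The remaining 2 genes were on in MCF10AT1 alone. ZNF501 (3:44729596-44737083), which has zinc fingers without a KRAB domain, had 1, 0 and 1 counts in MCF10A, then 149, 159 and 148 in MCF10AT1 and 4, 0 and 2 in MCF10Ca1a. ZNF681 (19:23739195-23758891), a KRAB gene, had 5, 8 and 7, then 142, 174 and 166, then 6, 7 and 9. The nearest tested neighbour of ZNF501, ZNF502, 16953 bases away, had the opposite pattern between the first pair of lines, with 53, 51 and 45 counts in MCF10A, 0 in MCF10AT1 and 2, 0 and 0 in MCF10Ca1a.

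Members just inside and outside the thresholds show how sharp the set is. Inside on the count sum were ZNF214 at 24, ZNF311 at 22, ZNF681 at 22 and ZNF585A at 21 in MCF10Ca1a, and ZNF829 at 30, on the limit, in MCF10AT1. Leaving out MCF10AT1 replicate 1, with the limit scaled, took the genes off in MCF10AT1 from 12 to 11. Outside were ZNF703 at 33 (12, 9 and 12 counts, against 395, 338 and 347 in MCF10AT1), ZNF701 at 37.4 and ZNF599 at 47. ZNF701 had 267, 319 and 385 counts in MCF10A, then 16, 10 and 19 in MCF10AT1 and 10, 10 and 17 in MCF10Ca1a. ZNF599 had 147, 130 and 133, then 86, 78 and 90, then 17, 15 and 15. Inside the set, ZNF311 (log2 change -3.03 in MCF10Ca1a against MCF10A) and ZNF214 (-3.31) fell less than ZNF701 outside it (-3.78). So genes with strong but incomplete losses lie on both sides of the limit, which is set on counts and not on the size of the fall.
On the mean, ZNF880 at 109, ZNF311 at 114 and ZNF829 at 115 counts were inside, and ZNF594 at 96, ZNF568 at 82.3 and ZNF429 at 80 were outside. ZNF594 had 31, 31 and 48 counts in MCF10A, then 114, 88 and 86 in MCF10AT1 and 6, 6 and 7 in MCF10Ca1a. ZNF429 had 76, 89 and 75 in MCF10A, 0, 1 and 1 in MCF10AT1 and 0 in MCF10Ca1a. Those outside on the mean thus had off states like those inside.

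Chromosome 19 held 25 of the 33 genes (75.8%), against 149 of the 358 other ZNF genes with a mean of 100 or more (41.6%) and 23 of the 464 other genes with a position that met the rule (4.96%). Of the 25, 22 fell into 5 runs in which each start site was within 1 Mb of the next. In 2 of the runs every ZNF gene with a mean of 100 or more counts was off, and in the other 3 silent and active genes were interspersed.

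The first run (19:12092843-12441112, 348 kb) held ZNF20, ZNF136, ZNF44, ZNF799 and ZNF443, all KRAB genes, all off in MCF10Ca1a alone with 0 counts in every library of it. ZNF44 was highest, with 354, 415 and 445 counts in MCF10A and 672, 639 and 669 in MCF10AT1, and was at least 118-fold lower in MCF10Ca1a. ZNF136 had 179, 182 and 196 in MCF10A and 68, 63 and 73 in MCF10AT1. These 5 genes were clearly on in both other lines and had no read in MCF10Ca1a.
ZNF20 had 133, 165 and 182 counts in MCF10A and 233, 220 and 182 in MCF10AT1. ZNF799 had 169, 205 and 253, then 172, 146 and 140, and ZNF443 had 146, 161 and 187, then 138, 141 and 125. Reads of these 3 can be assigned to other genes: 45.5% of the 31-base stretches of ZNF20, 66.4% of those of ZNF799 and 43.6% of those of ZNF443 were unique to the gene, the first sharing with the readthrough ZNF625-ZNF20 and the others with each other. Their levels are uncertain to that extent. As each is at 0 in MCF10Ca1a, the split between ZNF799 and ZNF443 does not touch their off state.

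The silent stretch was longer than the run. Between ZNF700 and ZNF564, 10 tested genes in a row had summed counts of 0 or 1 in MCF10Ca1a, from ZNF433-AS1, 153 kb before the start of ZNF20, to ZNF709, 373 kb after it. The stretch was picked out after its values were seen. It includes ZNF433 (35, 41 and 46 counts in MCF10A), ZNF563 (68, 60 and 78 in MCF10A and 63, 80 and 65 in MCF10AT1) and ZNF709 (10, 45 and 59 in MCF10A), which were too low to meet the rule. The flanks stayed on: ZNF700 had 263, 227 and 253 counts in MCF10Ca1a and ZNF564 had 170, 185 and 166. In MCF10AT1 the stretch was off at its edges only, with 0 counts of ZNF433-AS1 and ZNF433 and 1, 1 and 8 of ZNF709, while the genes between were on.

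**Figure D3:**
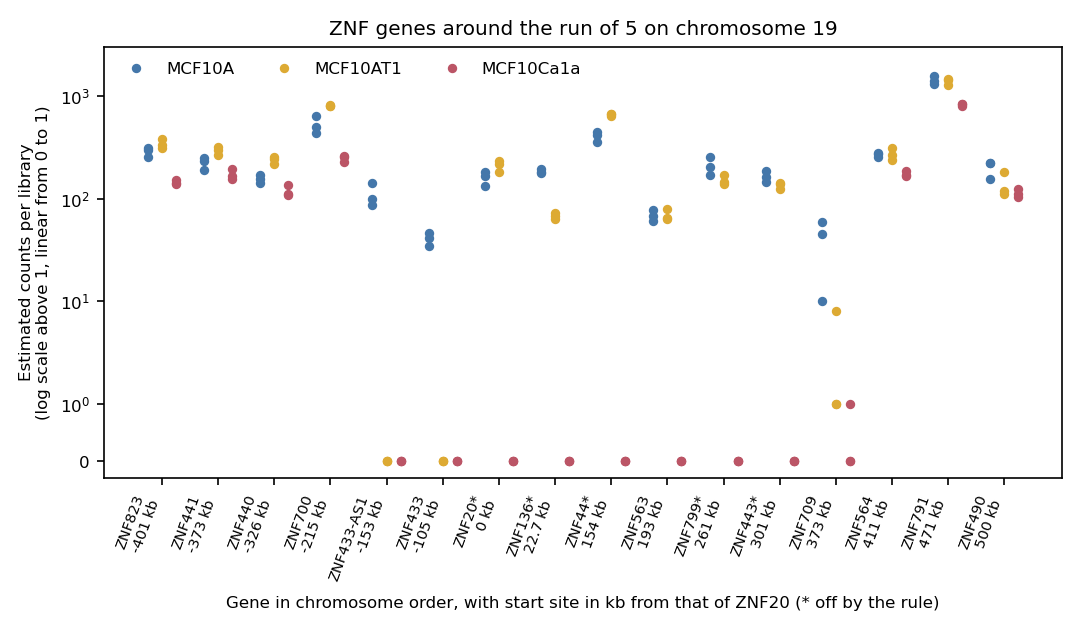
Estimated counts in each library (points, log scale above 1) of ZNF genes and ZNF433-AS1 in chromosome order, labelled with the distance of their start from that of ZNF20 in kb, for the 3 lines. All 3 MCF10Ca1a points lie at 0, or at 1 for a library of ZNF709, from ZNF433-AS1 to ZNF709, and ZNF700 and ZNF564 on either side stay above 100 counts.

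The second run (19:19710471-19963464, 253 kb) held ZNF14, ZNF253 and ZNF93, the last a KRAB factor known to repress LINE-1 elements. All were on in MCF10A alone. ZNF14 had 194, 261 and 345 counts and ZNF93 had 206, 194 and 249 in MCF10A, and both were at 0 in all 6 other libraries. ZNF253 had 161, 158 and 170 in MCF10A, then 1, 0 and 0 in MCF10AT1 and 2, 0 and 0 in MCF10Ca1a. ZNF506, within the run and too low for the rule, had 26, 15 and 29 counts in MCF10A and 0 elsewhere. The non-coding LINC00663 among them went the other way, with 3, 5 and 10 counts in MCF10A, then 20, 20 and 18 in MCF10AT1 and 63, 72 and 56 in MCF10Ca1a.

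The third run (19:20923222-21767628, 844 kb) held ZNF85, ZNF738, ZNF493 and ZNF100, all off in MCF10Ca1a alone. ZNF100 had 671, 703 and 858 counts in MCF10A, 369, 368 and 318 in MCF10AT1 and 0 in MCF10Ca1a, at least 131-fold lower than in MCF10A. ZNF85 had 475, 495 and 640, then 335, 406 and 351, then 5, 6 and 3, and its level in MCF10A was 10.3 ± 0.627 TPM (SD, n = 3). ZNF738 had 282, 352 and 368, then 260, 261 and 254, then 0 in each library. The loss was complete in ZNF100 and ZNF738 and left a few reads in ZNF85.
ZNF493 had 201, 267 and 298 counts, then 110, 68 and 109, then 1, 0 and 0. The other 4 ZNF genes of this run with a mean of 100 or more were on but lower in MCF10Ca1a than in both other lines. ZNF430 had 199, 226 and 220 counts there (log2 change -1.29 against MCF10A by edgeR, adjusted p = 1.33e-08), ZNF714 had 197, 181 and 164 (-1.65, adjusted p = 1.35e-09) and ZNF431 had 454, 450 and 387 (-0.71, adjusted p = 2.05e-05). ZNF708 had 329, 374 and 442 counts in MCF10A, then 378, 372 and 334 in MCF10AT1 and 41, 46 and 38 in MCF10Ca1a (-2.27, adjusted p = 9.66e-10).

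The fourth run (19:36817428-37469275, 652 kb) mixed both patterns. ZNF585A and ZNF585B were off in MCF10Ca1a alone, with 219, 280 and 285 counts in MCF10A, then 242, 280 and 255 in MCF10AT1 and 9, 7 and 5 in MCF10Ca1a for ZNF585A. ZNF585B had 256, 300 and 328, then 217, 196 and 203, then 5, 2 and 2. These neighbours share sequence, with 78.1% and 68.1% of their 31-base stretches unique. The level of ZNF585A, 10.6 ± 1.27 TPM in MCF10A (SD, n = 3), rests on a short transcript, ENST00000588354.1, that took 95.8% of its TPM.
ZNF790, ZNF829 and ZNF569 were on in MCF10A alone. ZNF790 had 170, 160 and 164 counts there, ZNF829 had 106, 107 and 133, and ZNF569 had 143, 149 and 190. ZNF790 and ZNF569 were at 0 in all 6 other libraries, and ZNF829 was at 0 in MCF10Ca1a. The 4 other ZNF genes with a mean of 100 or more were on in each line: in MCF10Ca1a ZNF875 had 443, 450 and 468 counts, ZNF383 had 103, 118 and 140, ZNF527 had 176, 151 and 181 and ZNF420 had 209, 211 and 198.

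In the fifth run (19:52369917-53496255, 1130 kb) 5 of 18 ZNF genes with a mean of 100 or more were off and 13 were not. ZNF880 had 124, 83 and 121 counts in MCF10A and ZNF528 had 161, 183 and 268, and both were at 0 in the other lines. ZNF320 had 399, 471 and 500 in MCF10A, 0, 0 and 1 in MCF10AT1 and 2 in each MCF10Ca1a library. ZNF813 had 135, 138 and 180, then 0, 1 and 0, then 1, 0 and 1. These 4 were on in MCF10A alone.
ZNF160 was on in MCF10AT1 too, with 448, 431 and 507 counts in MCF10A, 367, 345 and 330 in MCF10AT1 and 0 in MCF10Ca1a. ZNF320 is the least certain of the 33: 20.8% of its 31-base stretches are unique, and 70.6% are shared with ZNF468, its neighbour, which was on in every line (992, 1122 and 1356 counts in MCF10A and 411, 387 and 422 in MCF10Ca1a). Over the 33 genes the median was 94.1% unique, and 25 were over 80%. ZNF813 (75.3%) and ZNF253 (76.8%) also fell under that.

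Opposite-strand partners whose start, by the outermost GENCODE gene ends, lies within 2 kb were found for 7 of the 33 genes. Of these partners, 5 were silent with their gene. ZNF568, whose mouse counterpart silences a placental growth factor transcript, starts 38 bases from ZNF829 and had 82, 76 and 89 counts in MCF10A, 8, 4 and 7 in MCF10AT1 and 0 in MCF10Ca1a. ZNF345, 426 bases from ZNF790, had 32, 45 and 54 counts in MCF10A and 0 in the other lines. ZNF570, 1690 bases from ZNF569, had 23, 42 and 19, then 0, then 1, 0 and 0. Each followed the pattern of its partner over all 3 lines.
ZNF528-AS1, 83 bases from ZNF528, had 14, 18 and 14 counts in MCF10A and 0 in the other lines, and ZNF22-AS1, 413 bases from ZNF22, had 30, 45 and 41, then 32, 37 and 27, then 0. In the edgeR quasi-likelihood fit over all 17910 genes tested, which called 41.9% of genes lower in MCF10Ca1a than in MCF10A, ZNF22-AS1 was lower there (adjusted p = 9.30e-07) and did not pass in MCF10AT1 against MCF10A (log2 change -0.25, SE 0.243, adjusted p = 0.403), where ZNF22 was higher. The libraries were made with a stranded kit, but whether the counting used strand is not given in the sources used here, so reads of a gene and its antisense partner may not be told apart where they overlap.

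The other 2 partners kept reads in MCF10Ca1a. ZNF383, 227 bases from ZNF585B by GENCODE ends, had 308, 310 and 397 counts in MCF10A and 560, 583 and 516 in MCF10AT1. In MCF10Ca1a it had 103, 118 and 140, lower than in MCF10A by edgeR (log2 change -0.57, SE 0.118, adjusted p = 0.000556). The RefSeq promoter window of ZNF585B (chr19:37210487-37210786, minus strand) shares 0 bases with that of ZNF383. Windows of the other pairs share 140 to 232 bases, so a shared start is not shown for ZNF585B and ZNF383. NLRP14, a gene known for its role in germ cells, was low in each line. It starts 78 bases from ZNF214 and had 13, 4 and 12 counts, then 15, 8 and 7, then 20, 20 and 11. It was higher in MCF10Ca1a than in MCF10A (log2 change 1.72, SE 0.43, adjusted p = 0.00215), as counts per library size, while ZNF214 fell to 4, 12 and 8. Of the 6 promoters printed above, the windows of ZNF829 and ZNF568 and those of ZNF214 and NLRP14 overlap, by 140 and 232 bases, and the pairs differ in what the partner did.

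Genes near the silent genes both rose and fell. Within 500 kb of any of the 33, with each off line set against the highest line, 116 of 346 tests gave a higher and 132 a lower level in the off line. Within 100 kb they were 21 and 41 of 82, and within 1 Mb 275 and 246 of 694. Within 500 kb of the 27 genes that were highest in MCF10A and off in MCF10Ca1a, 174 other genes were tested, and 58 were higher and 72 lower in MCF10Ca1a (41.4% lower, against 41.9% of all genes tested, with a median log2 change of -0.11). Among the 77 ZNF genes there, 29 were higher and 35 lower (45.5% lower, median -0.09). Around the 6 genes highest in MCF10AT1, 12 of 55 were higher and 25 lower in MCF10Ca1a than in MCF10AT1 (45.5% lower, against 40.3% of all genes tested), and of the 19 ZNF genes among them 2 were higher and 11 lower (57.9% lower, median -0.77). Around the 12 genes off in MCF10AT1, 42 of 94 were higher and 25 lower in MCF10AT1 than in MCF10A (26.6% lower, against 31.8%). Of the 52 ZNF genes in that last set, 31 were higher and 11 lower in MCF10AT1 (59.6% higher, against 29.8% of all genes tested and 61% of the ZNF genes of chromosome 19 that did not meet the rule). Around the 2 genes off in MCF10A, 4 of 23 were higher and 10 lower in MCF10A than in MCF10AT1 (43.5% lower, against 29.8% of all genes tested), and of the 9 ZNF genes 2 were higher and 3 lower.

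A subset of neighbours was also near 0. In MCF10Ca1a against MCF10A, 24 of the 174 (13.8%) were called lower and summed to 30 or less in MCF10Ca1a, against 7.62% of all genes tested, and in MCF10AT1 against MCF10A 9 of 94 (9.57%) did, against 3.16%. In MCF10Ca1a against MCF10AT1 the count was 5 of 55 (9.09%), against 6.78%. This count was chosen after the values were seen. ZNF genes made up 12 of the 24, where they were 77 of the 174 neighbours tested: ZNF345, ZNF429, ZNF433, ZNF506, ZNF563, ZNF568, ZNF570, ZNF66, ZNF709, ZNF737, ZNF850 and ZNF879. They were 2 of the 5 in MCF10Ca1a against MCF10AT1 (19 of the 55 tested) and 6 of the 9 in MCF10AT1 against MCF10A (52 of the 94). ZNF879, the nearest tested neighbour of ZNF354C, had 21, 23 and 31 counts in MCF10A, 2, 1 and 2 in MCF10AT1 and 0 in MCF10Ca1a.
Neighbours that met both thresholds were ZNF433-AS1, with 87, 99 and 141 counts in MCF10A and 0 in the other lines, and ANGPTL4, which encodes an inhibitor of lipoprotein lipase and starts 469039 bases from ZNF558. ANGPTL4 had 21637, 19232 and 18921 counts in MCF10A, then 7511, 7561 and 6434 in MCF10AT1 and 4, 4 and 7 in MCF10Ca1a.

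**Figure D4:**
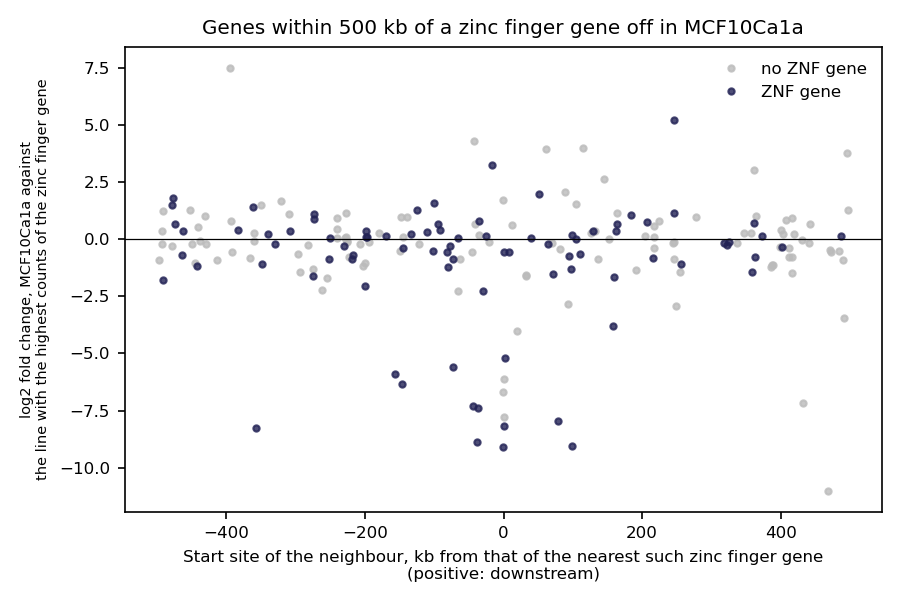
log2 fold change in MCF10Ca1a, against the line in which the silent gene is highest, of each tested gene within 500 kb of a gene off in MCF10Ca1a (points, dark for ZNF genes), by the distance of its start from the nearest such gene. Within 2 kb most points lie far below 0. Farther out most lie around 0, and a group of mainly ZNF genes lies far below it. ZNF433 and ZNF433-AS1 are drawn at 0, because they also have 0 counts in MCF10AT1, the highest line of ZNF20, their nearest silent gene. ZNF502, with a sum of 2 counts in MCF10Ca1a and 0 in MCF10AT1, is drawn at 3.24.

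The rule sets no direction between MCF10A and MCF10AT1 for the 19 genes off in MCF10Ca1a alone, but it asks for a mean of 100 counts in one of them. ZNF385B, ZNF214, ZNF136, ZNF493 and ZNF711 reached that mean in 1 of the lines only and so had to differ. Their log2 changes, -2.57, -0.75, -1.42, -1.38 and 1.34, are given as a description with no test. Over all 19 genes the edgeR fit called 12 lower and 4 higher in MCF10AT1, and 8 and 3 in the authors' scaled counts, from which nothing is read.
Of the 14 genes that reached the mean in both lines, 8 were lower in MCF10AT1 by edgeR (57.1%, against 31.8% of all genes tested), 3 were higher (21.4%, against 29.8%) and 3 did not pass. Their median log2 change was -0.36, against 0.00 over all genes tested. Libraries of the lines did not overlap in CPM for 12 of the 14, as they did not for 65.4% of all genes tested. These 14 were also chosen on counts in the lines compared, so the counts describe them and support nothing further. The largest falls were of ZNF71 (log2 change -2.07, SE 0.119, adjusted p = 2.95e-08), which with 109, 99 and 94 counts in MCF10AT1 was just above the mean of 100, and ZNF100 (-1.05).
Smaller falls were those of ZNF558 (-0.94), ZNF85 (-0.53), ZNF585B (-0.49), ZNF799 (-0.42), ZNF160 (-0.38) and ZNF738 (-0.34). ZNF22 rose most (1.41, SE 0.0744, adjusted p = 1.33e-08), then ZNF44 (0.74, adjusted p = 2.68e-05) and ZNF20 (0.43, adjusted p = 0.0169). ZNF443 (-0.26, adjusted p = 0.106), ZNF311 (-0.11, adjusted p = 0.578) and ZNF585A (0.02, adjusted p = 0.923) did not pass. Within the run of 5 on chromosome 19, whose genes were all at 0 in MCF10Ca1a, ZNF44 and ZNF20 were thus higher in MCF10AT1, ZNF799 was lower and ZNF443 did not pass.
Several of these calls are fragile. On TPM, the direction of ZNF20 turned (-0.03 on log2(TPM + 1)), and its call was lost without MCF10AT1 replicate 1 (0.38) or 2 (0.42) and with either scaled count table. The calls of ZNF738 (-0.29 to -0.33) and ZNF799 (-0.31 to -0.42) were lost without MCF10A replicate 2, MCF10A replicate 3 or MCF10AT1 replicate 2, that of ZNF738 also without MCF10AT1 replicate 1 and that of ZNF799 also without MCF10AT1 replicate 3. The scaled counts also ended the calls of ZNF738 (-0.26), ZNF799 (-0.47) and ZNF585B (-0.55), and the length-scaled counts that of ZNF738 (-0.25). On log2(TPM + 1), which shrinks changes of low genes, ZNF385B was at -0.75, ZNF71 at -1.23, ZNF136 at -0.72, ZNF711 at 0.38 and ZNF44 at 0.32, and ZNF443 gained a call (-0.21).

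**Figure D5:**
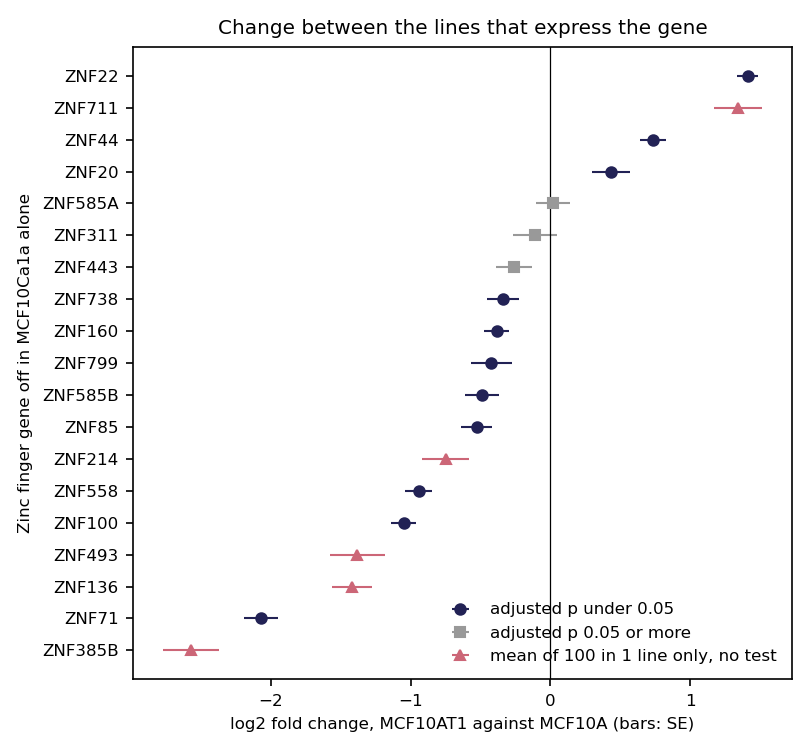
log2 fold change of MCF10AT1 against MCF10A (points, bars are SE of the edgeR fit) for the 19 genes off in MCF10Ca1a alone. Circles have an adjusted p under 0.05, squares do not, and triangles mark the 5 genes that reached a mean of 100 counts in 1 line only and have no test. Values run from -2.57 for ZNF385B to 1.41 for ZNF22.

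The rest of the family was split between rises and falls. Of the 403 other ZNF genes tested, 175 were higher and 171 lower in MCF10Ca1a than in MCF10A by edgeR, with a median log2 change of 0.08, where 80.9% of all genes tested changed. On log2(TPM + 1) they were 186 and 133. Against MCF10AT1, 154 were higher and 165 lower in MCF10Ca1a (median 0.00; 188 and 107 on log2(TPM + 1) with limma), where 78.4% of all genes changed. In MCF10AT1 against MCF10A, 162 were higher and 123 lower (median 0.07), where 61.6% of all genes changed. That split turned to 105 and 132 on log2(TPM + 1), with a median of -0.04.
On chromosome 19, 108 of 177 other ZNF genes were higher in MCF10AT1 than in MCF10A and 33 were lower, with a median of 0.39, beside 397 and 222 of the 932 tested genes there that are no ZNF genes (median 0.18). On the other chromosomes 54 of 226 other ZNF genes were higher and 90 lower (median -0.10). In MCF10Ca1a against MCF10A the counts were 96 higher and 55 lower on chromosome 19 (54.2% and 31.1%), and 79 higher and 116 lower elsewhere. The genes of chromosome 19 that are no ZNF genes divided almost alike, with 486 of 932 higher and 292 lower (52.1% and 31.3%). The 3 comparisons share libraries, and no test of the difference between chromosomes was made.

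The RNA of genes for the proteins through which KRAB factors act was read as a list of 30 genes, all tested. In MCF10Ca1a against MCF10A, 22 were lower and 4 higher (median log2 change -0.46, against -0.05 over all genes tested, of which 41.9% were lower and 39% higher), and on log2(TPM + 1) 15 were lower and 4 higher. In MCF10AT1 against MCF10A, 17 were lower and 5 higher (median -0.21, against 0.00, with 31.8% of all genes lower and 29.8% higher). In MCF10Ca1a against MCF10AT1, 19 were lower and 8 higher (median -0.35, against -0.04, with 40.3% of all genes lower and 38% higher), which on log2(TPM + 1) became 10 lower and 11 higher.
DNMT3B, a de novo DNA methyltransferase, fell most. It was at 2.7, 1.9 and 2.38 TPM in MCF10A, then 0.714, 0.772 and 0.764 in MCF10AT1 and 0.0645, 0.0288 and 0.0268 in MCF10Ca1a. The log2 change was -1.48 (adjusted p = 3.26e-08) in MCF10AT1 and -6.20 (SE 0.195, adjusted p = 2.02e-12) in MCF10Ca1a against MCF10A, and -1.67 for the latter on log2(TPM + 1), which understates changes of low genes. The 3 lines did not overlap.
UHRF1, which brings the maintenance methyltransferase DNMT1 to newly copied DNA, had 46.7, 35.5 and 31.6 TPM in MCF10A, then 27, 25.8 and 27 in MCF10AT1 and 5.03, 5.34 and 5.39 in MCF10Ca1a (log2 change -2.99, SE 0.0905, adjusted p = 1.42e-12 for MCF10Ca1a against MCF10A). DNMT1 itself was lower by 1.07 log2 units in MCF10Ca1a (log2 change -1.07, adjusted p = 1.37e-09). ATF7IP2, a partner of SETDB1, was lower in MCF10AT1 than in MCF10A (-1.03, adjusted p = 2.01e-07).

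TRIM28, the co-repressor that KRAB domains bind, had no called difference between MCF10A and MCF10Ca1a. It had 243, 196 and 175 TPM in MCF10A, then 264, 254 and 243 in MCF10AT1 and 207, 208 and 216 in MCF10Ca1a. It was higher in MCF10AT1 than in MCF10A by edgeR (log2 change 0.46, SE 0.0747, adjusted p = 0.000113) and did not pass in MCF10Ca1a against MCF10A (-0.05, SE 0.075, adjusted p = 0.581), and it was lower in MCF10Ca1a than in MCF10AT1 (-0.51, adjusted p = 2.72e-05). SETDB1 had 22.2, 20.5 and 19.8 TPM in MCF10A, then 14.2, 13.9 and 12.5 in MCF10AT1 and 21.9, 23.7 and 24.8 in MCF10Ca1a, lower in MCF10AT1 than in MCF10A (-0.61, adjusted p = 5.13e-07) and without a call in MCF10Ca1a against MCF10A (-0.05, adjusted p = 0.401). It was higher in MCF10Ca1a than in MCF10AT1 (0.55, adjusted p = 6.70e-07). The other largest rises were small. MTA1, a subunit of the NuRD deacetylase complex, was higher in MCF10Ca1a than in MCF10A (0.44, adjusted p = 1.27e-06) and MCF10AT1 (0.60, adjusted p = 5.43e-08), and POGZ, which binds heterochromatin proteins, than in MCF10AT1 (0.73, adjusted p = 1.23e-08).
DNMT3A, the other de novo methyltransferase, was higher in MCF10Ca1a than in MCF10A (0.56, adjusted p = 0.00201), a call that the scaled counts did not keep (0.44). Its call in MCF10AT1 against MCF10A (0.35, adjusted p = 0.0339) was lost without MCF10A replicate 2 (0.39) or 3 (0.25), without MCF10AT1 replicate 1 (0.31) or 3 (0.33), with both scaled tables and on TPM. Whether any of these levels bears on the silent genes was not tested.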

How the data were processed

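Libraries were made from poly-A RNA with a stranded Illumina kit, per the labels' protocols. Expression was quantified with Salmon on hg38, per the submitters' processing notes; the version, the annotation and the use of strand are not given in the sources used here. The deposited tables hold estimated counts per gene, 2 rescaled versions of them (length-scaled and scaled counts), TPM per gene, and estimated counts and TPM per transcript, per the file headers. The rule and the tests used the deposited estimated counts, rounded for the tests.

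Genes passing filterByExpr (minimum count 10, minimum total 15), 17910 of 62666 and all 33 genes described, were tested with edgeR 4.0.16 (R 4.3.3): TMM scaling, quasi-likelihood test, all 9 libraries in 1 fit with line as the only term, Benjamini-Hochberg adjustment over the whole table, and calls at an adjusted p under 0.05. Each SE is the log2 change over the root of its F statistic. CPM was computed on TMM-scaled totals. A fold against a line at 0 uses a floor of 3 counts per library and covers counting error only. PCR copies are not told apart from separate molecules here.

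GENCODE 29 (GRCh38) gave the position of 58227 genes (92.9%), matched by Ensembl identifier without its version, and RefSeq (GRCh38.p14) gave promoters. KRAB and C2H2 patterns were searched in translations of GENCODE 29 coding transcripts.

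The genes described and all lists were chosen with earlier results of these data known. Per-library values are given for the 5 genes with the highest TPM in each set of off lines. They are also given for those within 1 Mb of another and those next to a threshold. Co-repressor genes are named for the 2 largest rises and 2 largest falls per comparison. Neighbours that met the rule are named. Of the nearest neighbours only some are named, chosen after their values were seen. Those left out include CWC22 near ZNF385B and ZNF583 near ZNF71, without a call in MCF10Ca1a against MCF10A. Also left out is HCG15 near ZNF311, which was lower there. TRIM28, SETDB1, DNMT1 and further genes named were chosen after their values were seen. In simulated data with 200 of 17910 genes changed, edgeR recovered 200 with 13 false calls in MCF10AT1 against MCF10A. In MCF10Ca1a against MCF10AT1 it recovered 199 with 10 false calls. Every simulated gene had the same dispersion and few genes changed, unlike in these data, so this checks the code only. Alternatives included DESeq2 1.42.0 and limma 3.58.1 on log2(TPM + 1) and log2(TPM + 0.1).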

Additional observations from a re-analysis of the deposited data

How the results depend on the processing

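The number of genes that met the rule moved with its thresholds: 19 with a mean of 200 in place of 100, 21 with counts scaled to the smallest library, 25 in the scaled counts, 36 in the length-scaled counts, 29 and 40 with a sum of 15 or 60, and 42 with a mean of 50. Leaving out each library in turn, with the sum limit scaled, gave 33 to 34. Off in MCF10Ca1a were 19 of the 21 with counts scaled to the smallest library and 24 of the 25 in the scaled counts. With a sum of 60 they were 39 of 40, and with a mean of 50, 40 of 42. The number off in MCF10AT1 went from 12 to 7 with counts scaled to the smallest library and to 6 with a mean of 200. The number of called neighbours, 248 of 346, became 62 within 100 kb and 521 within 1 Mb, because the window holds fewer or more genes. All other totals of calls, both directions together, stayed within 1.5 times under every alternative run. Counts in 1 direction moved further: on log2(TPM + 1), other ZNF genes higher in MCF10AT1 than in MCF10A went from 162 to 105 and those lower in MCF10Ca1a than in MCF10AT1 from 165 to 107, and co-repressor genes lower in MCF10Ca1a than in MCF10AT1 from 19 to 10 and higher in MCF10AT1 than in MCF10A from 5 to 3. Without a filter, co-repressor genes higher in MCF10Ca1a than in MCF10A went from 4 to 2. ZNF20 in MCF10AT1 against MCF10A reversed on log2(TPM + 1) (-0.03) and log2(TPM + 0.1) (-0.05). Among single genes, 28 values lost their call and 2 gained one under an alternative, and 526 kept their side of the threshold, among them ZNF311 (0.01 without MCF10A replicate 2) and ZNF585A (down to -0.17), which have no call and changed sign. TPM moved the median of all genes by -0.07 on log2(TPM + 1) and -0.11 on log2(TPM + 0.1) for MCF10AT1 against MCF10A, by 0.11 and 0.15 for MCF10Ca1a against MCF10A, and by 0.17 and 0.25 for MCF10Ca1a against MCF10AT1.

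Replicate numbers did not pair the libraries: the correlation of same-numbered deviations was -0.0597 to 0.0451. With the replicate number as a block, 277, 347 and 310 other ZNF genes were called, 21, 26 and 27 co-repressor genes, 16 of the 19 genes on in both other lines, and 249 neighbours, so no count moved beyond 1.5 times. Depth limits the off state: at 32.9 M counts a gene at 0 may still be transcribed below 3 counts per library.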
